A study of Mus musculus with 6 samples.

Results

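Mitochondrial ribosomal proteins are the nuclear-encoded proteins of the ribosome that works inside mitochondria. The genes were taken by name, as every row of the deposited table whose symbol is Mrpl or Mrps followed by a number and at most 1 letter, which gave 78 of 55487 gene rows. Of these, 49 carry large subunit names (Mrpl) and 29 small subunit names (Mrps). All 78 matched a protein-coding gene of the GENCODE M21 annotation (mouse genome build GRCm38), and all 78 passed the filter on low counts.

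Mammalian mitochondria keep a small genome whose messenger RNAs encode membrane subunits of the respiratory chain and the ATP synthase, and the mitochondrial ribosome makes all of these proteins. Its proteins are made in the cytosol and imported, so their genes are expressed from the nucleus, while its ribosomal RNAs come from the mitochondrial genome. Many of its proteins descend from bacterial ribosomal proteins, and the others are specific to mitochondria and cover much of the particle's surface.

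Poly(A) RNA was sequenced from macrophages grown out of the bone marrow of female, wild-type mice of strain Balb/c, aged 6 to 12 weeks. In both groups marrow cells were grown for 8 days with 20% medium conditioned by L929 fibroblasts, a source of the macrophage growth factor CSF1, and both IL-4 and IL-13 (10 ng/mL) were then added for 24 hours to polarize them towards the alternative (M2) state. The NP group (n = 3) then received 200 µg/mL of nanoparticles for 24 hours, made of poly(lactide-co-glycolide) according to the series title and labelled PEMA, a term that no source used here explains, and the PBS group (n = 3) received the vehicle. The comparison asks how the particles changed gene expression in these macrophages. The labels do not say whether samples of a group came from separate animals or cultures, so a p-value here reflects the spread among these samples alone, part of which may be technical.

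Library totals ran from 60702163 to 69450411 counts in NP and from 41974957 to 56265590 in PBS, with each of the NP libraries deeper than any PBS library. Levels are given as CPM, counts relative to the library size over tested genes, scaled with trimmed-mean factors, and differences as log2 fold changes of NP over PBS from limma voom, called at a Benjamini-Hochberg adjusted p under 0.05 over all 14478 genes tested. Olfactory and vomeronasal receptor genes summed to 9.70 to 11.9 CPM in the NP libraries and 12.5 CPM in PBS 1, whereas PBS 2 and PBS 3 stood apart at 138 and 153 CPM. The macrophage markers were present in every library (7 of 7 tested, summed to 9424 to 10434 CPM in NP and 11645 to 11945 CPM in PBS), with 5 of them lower and 1 higher in NP. What part the receptor counts and these markers have in the results below was not tested. Markers of T and B cells did not pass the filter, and Ly6g of neutrophils had 0 counts in all 6 libraries. Sums cover only markers that passed the filter. Those of neutrophils (2 of 5 markers) stayed between 0.862 and 1.13 CPM in NP and 0.545 and 0.773 CPM in PBS. Those of fibroblasts (3 of 5) stayed under 2 CPM in all 6 libraries. Those of dendritic cells (3 of 4) stayed between 2.55 and 3.12 CPM in NP and 1.55 and 3.49 CPM in PBS. Single markers were nevertheless called higher at under 1 CPM: S100a8 of neutrophils (0.65), Pdgfra of fibroblasts (1.57) and Ccr7 of dendritic cells, which averaged 0.452 CPM over the NP libraries and 0.00649 CPM over the PBS ones (4.98). Of the 3 osteoclast markers tested Ctsk (0.68) and Acp5 (0.24) were higher and Ocstamp (-0.67) was lower. These 3 summed to 27.4 to 30.8 CPM in NP and 25.8 to 28.6 CPM in PBS. The part of these markers in the results was not tested. The bulk measurement cannot tell apart fewer cells of a type and less RNA per cell.

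Macrophages given nanoparticles had more RNA of many mitochondrial ribosomal protein genes, by small amounts. Of the 78 genes, 28 were higher in NP (35.9%), 5 were lower (6.41%) and 45 did not pass the threshold. Among all genes tested, 41.2% were called, 19.8% higher and 21.4% lower. The share of these genes called in either direction, 42.3%, was thus close to that of all genes, while the split between directions was 28 to 5 here and 2872 to 3092 over all genes. The median log2 fold change of the 78 genes was 0.07, against -0.00 over all genes. Scaling by library totals alone, without the trimmed-mean factors, gave 20 higher and 7 lower, and so 74.1% of calls upward in place of 84.8%, with 15.7% of all genes then higher and 25.2% lower. Against PBS 1 alone, leaving out PBS 2 and PBS 3, the spread comes from the NP libraries only. The median was then 0.08 for the 78 genes and -0.007 over all genes. Calls of that fit are left out, since 1 PBS library shows no spread of its own.

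The called changes were small. Genes called higher rose by 8.85% (Mrpl10) to 31.8% (Mrps18b), and those called lower had differences of -15.5% (Mrps25) to -7.24% (Mrpl13). Only 9 of the 33 called genes reached an absolute log2 fold change of 0.2 and 3 reached 0.3, whereas 68.1% and 46% of all called genes did. The NP libraries did not overlap the PBS libraries in 37 genes that were higher in NP and 7 that were lower. Over all genes tested, 26.5% stood apart as higher and 26.8% as lower. All 33 called genes were among those that stood apart. When each library was left out in turn, 19 of the 28 higher genes were called every time. In these fits 25.8% to 40.3% of all genes were called, against 41.2% with all 6 libraries. Mrpl10, Mrpl35, Mrpl37, Mrpl50, Mrps2 and Mrps22 were called in 3 or fewer of the 6 fits, while Mrpl53 was lost without PBS 1 and PBS 2, Mrps7 without NP 3 and Mrps30 without PBS 3.

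**Figure D1:**
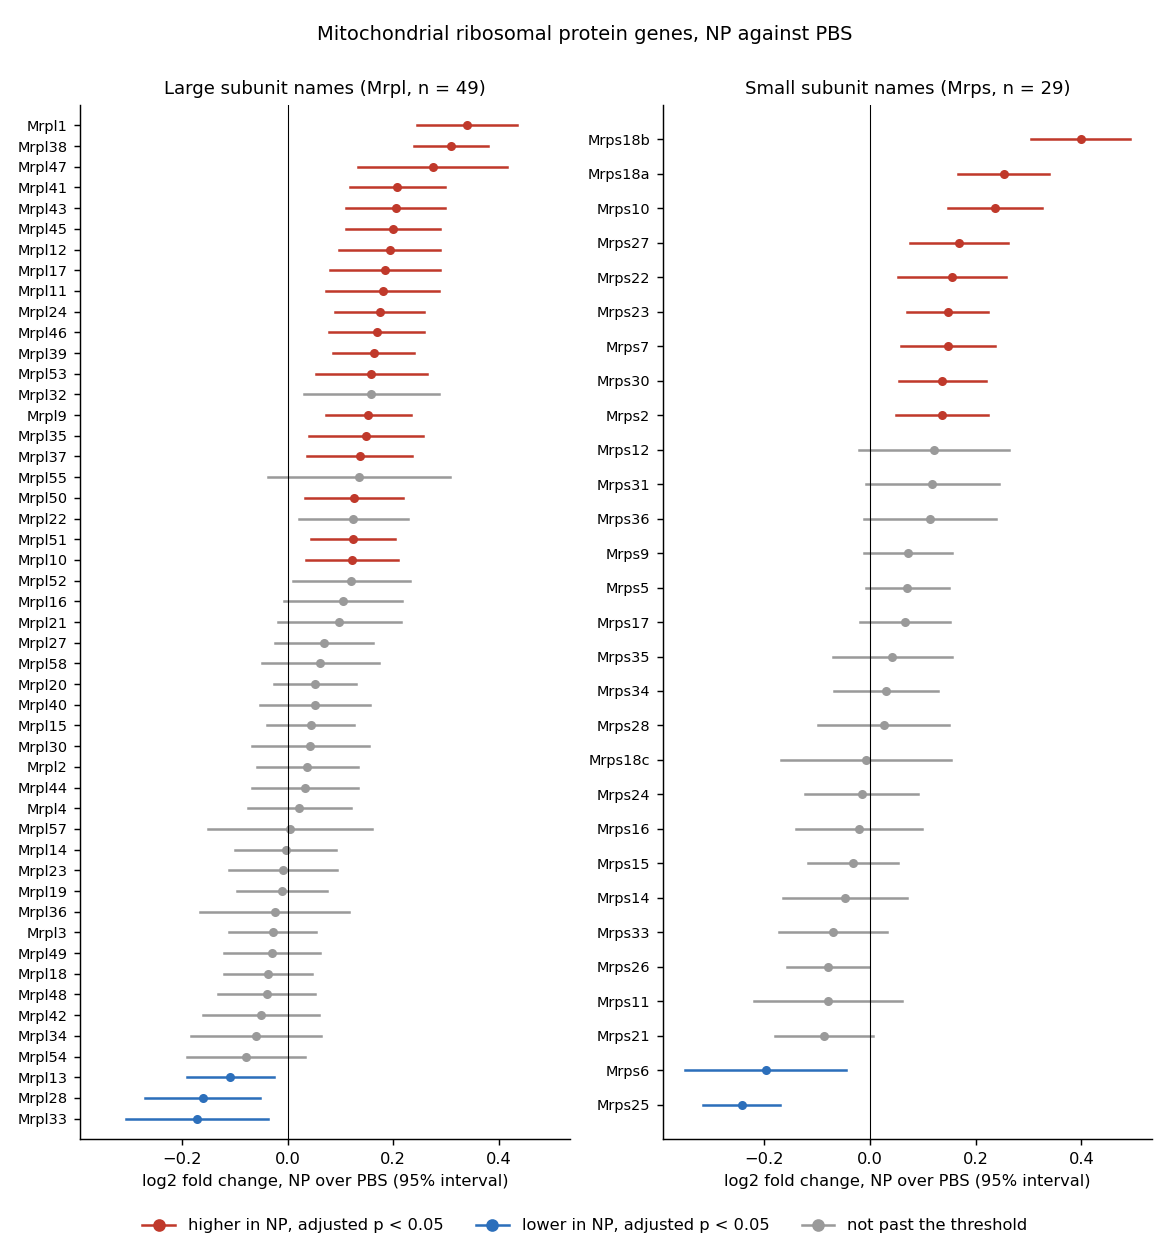
Log2 fold change of NP over PBS for each of the 78 genes (x axis; points are estimates, bars 95% intervals, n = 3 libraries a group), with large subunit names on the left and small subunit names on the right. Red genes were called higher in NP (28), blue genes lower (5) and grey genes passed neither way (45); no gene exceeds 0.40.

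The summed level of the genes separated the groups without overlap. Large subunit genes summed to 1659, 1649 and 1624 CPM in NP 1 to 3, against 1528, 1558 and 1558 CPM in PBS 1 to 3. Small subunit genes summed to 987, 979 and 967 CPM in NP 1 to 3, against 930, 942 and 944 CPM in PBS 1 to 3. Every NP library lay above every PBS library in both sums, by 6.19% on average for the large subunit and 4.12% for the small subunit. Part of this comes from the scaling. The trimmed-mean factors were 0.979, 0.989 and 0.996 in NP 1 to 3, against 1.01, 1.02 and 1.01 in PBS 1 to 3. They thus raised every NP sum against every PBS sum, and sums by subunit without them were not computed. Together the 78 genes took 0.258% to 0.260% of all counts in NP and 0.249% to 0.254% in PBS.

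In both subunits more genes were higher than lower. Among large subunit genes 19 of 49 were higher (38.8%) and 3 lower, and the median log2 fold change was 0.10. Among small subunit genes 9 of 29 were higher (31%) and 2 lower, with a median of 0.07. With library totals alone the medians were 0.06 and 0.03. Against PBS 1 alone the median over all 78 genes was 0.08. The ratio of the large to the small summed CPM was 1.68 in each NP library, against 1.64, 1.65 and 1.65 in PBS 1 to 3. The NP ratios all lay above the PBS ratios, and whether the subunits differ in response was not tested.

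The names do not fully follow the particle. Structures of the mammalian mitochondrial ribosome place the proteins of Mrps18a and Mrps30 in the large subunit, and the protein of Mrps36 is now known as a subunit of the 2-oxoglutarate dehydrogenase complex of the citric acid cycle. With genes assigned by structure, 21 of 51 large subunit genes were higher and 3 lower (median 0.10), and 7 of 26 small subunit genes were higher and 2 lower (median 0.04). Mrps36 had 15.6, 16.5 and 16.0 CPM in NP against 15.5, 14.8 and 14.0 CPM in PBS, which did not overlap, but it did not pass the threshold (log2 fold change 0.11, limma adjusted p = 0.131).

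Proteins specific to mitochondria and proteins with a bacterial counterpart showed different counts. Of 32 genes for mitochondria-specific proteins, 16 were higher (50%) and 1 lower (median 0.12). Of 46 genes for homologues of bacterial proteins, 12 were higher (26.1%) and 4 lower (median 0.05). Over all genes tested, 19.8% were higher and 21.4% lower. With subunits assigned by gene name, in the large subunit 10 of 19 mitochondria-specific genes were higher and 0 lower (also 0 at an unadjusted p under 0.05), against 9 of 30 homologues higher and 3 lower. In the small subunit 6 of 13 mitochondria-specific genes were higher and 1 lower. Of its 16 homologues 3 were higher (18.8%), near the share over all genes, and 1 was lower. By place in structures 12 of 21 mitochondria-specific genes and 9 of 30 homologues were higher in the large subunit. In the small one 4 of 10 and 3 of 16 were higher. Mrps18a and Mrps18b, relatives of a bacterial protein, are counted as mitochondria-specific here; with both among the homologues, 14 of 30 mitochondria-specific genes and 14 of 48 homologues were higher. The difference between the classes was not tested.

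The largest increase was in Mrps18b, 1 of 3 mammalian relatives of the bacterial small subunit protein S18, on chromosome 17 at 35910379 to 35916389. It had 77.1, 72.2 and 75.9 CPM in NP 1 to 3, against 55.6, 60.1 and 55.6 CPM in PBS 1 to 3. All NP libraries exceeded all PBS libraries (log2 fold change 0.40, SE 0.04, limma adjusted p = 0.000104). An antisense gene, Gm16279, overlaps 638 exonic bases of Mrps18b but held 365 counts over the 6 libraries, against 22782 for Mrps18b. Its relative Mrps18a, on the same chromosome at 46110986 to 46128910, had 34.2, 33.2 and 34.9 CPM in NP against 28.9, 28.9 and 28.1 CPM in PBS. The groups were apart by several times the spread within them (log2 fold change 0.25, SE 0.04, adjusted p = 0.000776). The third relative, Mrps18c on chromosome 5, had 16.0, 14.6 and 14.6 CPM in NP against 13.9, 15.5 and 16.4 CPM in PBS. These values overlapped fully, and the log2 fold change of Mrps18c was -0.01 (95% interval -0.17 to 0.15). Structures place Mrps18b and Mrps18c in the small subunit and Mrps18a in the large one.

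Among large subunit genes the largest increase was in Mrpl1, whose bacterial counterpart forms the mobile L1 stalk beside the exit site for used transfer RNAs (chromosome 5, 96209493 to 96266727). Mrpl1 had 34.1, 32.3 and 32.9 CPM in NP against 25.4, 27.1 and 26.2 CPM in PBS. The lowest NP library lay above the highest PBS library (log2 fold change 0.34, SE 0.04, limma adjusted p = 0.000257). The stalk that recruits translation factors was measured through Mrpl10 and Mrpl11 at its base, Mrpl12, which forms the stalk itself, and the neighbouring mitochondria-specific Mrpl53. All 4 were higher, with log2 fold changes of 0.12 (Mrpl10) to 0.19 (Mrpl12). However, Mrpl10 was called in only 1 of the 6 fits that leave out a library, and Mrpl53 was not called without PBS 1 or without PBS 2. The 4 genes, like the groups by place below, were chosen with the values known, and another choice of neighbours could change the count. Mrpl12, on chromosome 11 at 120484613 to 120489065, had 46.5, 46.5 and 45.1 CPM in NP against 39.2, 38.9 and 42.7 CPM in PBS, without overlap. Mrpl53 shares 695 exonic bases on the same strand with Gm42688, which was lower (-0.27), so its counts are uncertain.

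Genes for proteins around the exit of the peptide tunnel, where new chains leave towards the inner membrane, were higher in 4 of 6 cases (Mrpl17, Mrpl24, Mrpl45 and Mrpl47, against Mrpl22 and Mrpl23). Mrpl47 had 24.2, 21.4 and 21.8 CPM in NP against 18.2, 19.9 and 17.9 CPM in PBS. Its NP libraries were the highest 3, but NP 1 stood above the other two (log2 fold change 0.27, SE 0.06, adjusted p = 0.00683). Mrpl45, whose protein holds the ribosome to the inner membrane, had 39.3, 40.3 and 37.7 CPM in NP against 33.3, 34.6 and 34.2 CPM in PBS, without overlap. Mrpl23, a docking site for factors at the tunnel exit in bacteria, had 36.6, 37.3 and 38.1 CPM in NP against 37.4, 39.9 and 35.6 CPM in PBS, and its libraries were intermixed. Mrpl22 just missed the threshold (log2 fold change 0.12, adjusted p = 0.0552), as did Mrpl32 (0.16, adjusted p = 0.0501).

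In the central protuberance, the crown of the large subunit, 2 of 6 genes were higher and 4 did not pass. Mrpl38 on chromosome 11 (116131817 to 116138868) had 60.5, 59.2 and 59.7 CPM in NP against 48.8, 47.6 and 48.3 CPM in PBS. It had the tightest groups among the largest changes (log2 fold change 0.31, SE 0.03, limma adjusted p = 8.82e-05). Mrpl46, also of this region, was higher by 0.17, while Mrpl40, Mrpl48, Mrpl18 and Mrpl27 lay between -0.04 and 0.07. Mrpl46 and Mrps11 are head-to-head neighbours on chromosome 7 whose exons overlap by 173 bases on opposite strands. Mrps11 had a log2 fold change of -0.08 (adjusted p = 0.338) beside the called increase of Mrpl46.

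Of the other large subunit genes, Mrpl41 and Mrpl43, both for mitochondria-specific proteins, had log2 fold changes of 0.21 and 0.20. Mrpl41 had 23.6, 23.9 and 24.2 CPM in NP against 20.4, 21 and 20.7 CPM in PBS. Mrpl43 had 60.6, 56.1 and 57.2 CPM in NP against 49.2, 49.5 and 52.3 CPM in PBS. Both pairs of groups were apart, and Mrpl43 shares 507 exonic bases on the opposite strand with Twnk, the mitochondrial DNA helicase, which was also higher (log2 fold change 0.37). Mrpl9, Mrpl35, Mrpl37, Mrpl39, Mrpl50 and Mrpl51 rose by 0.12 to 0.16.

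**Figure D2:**
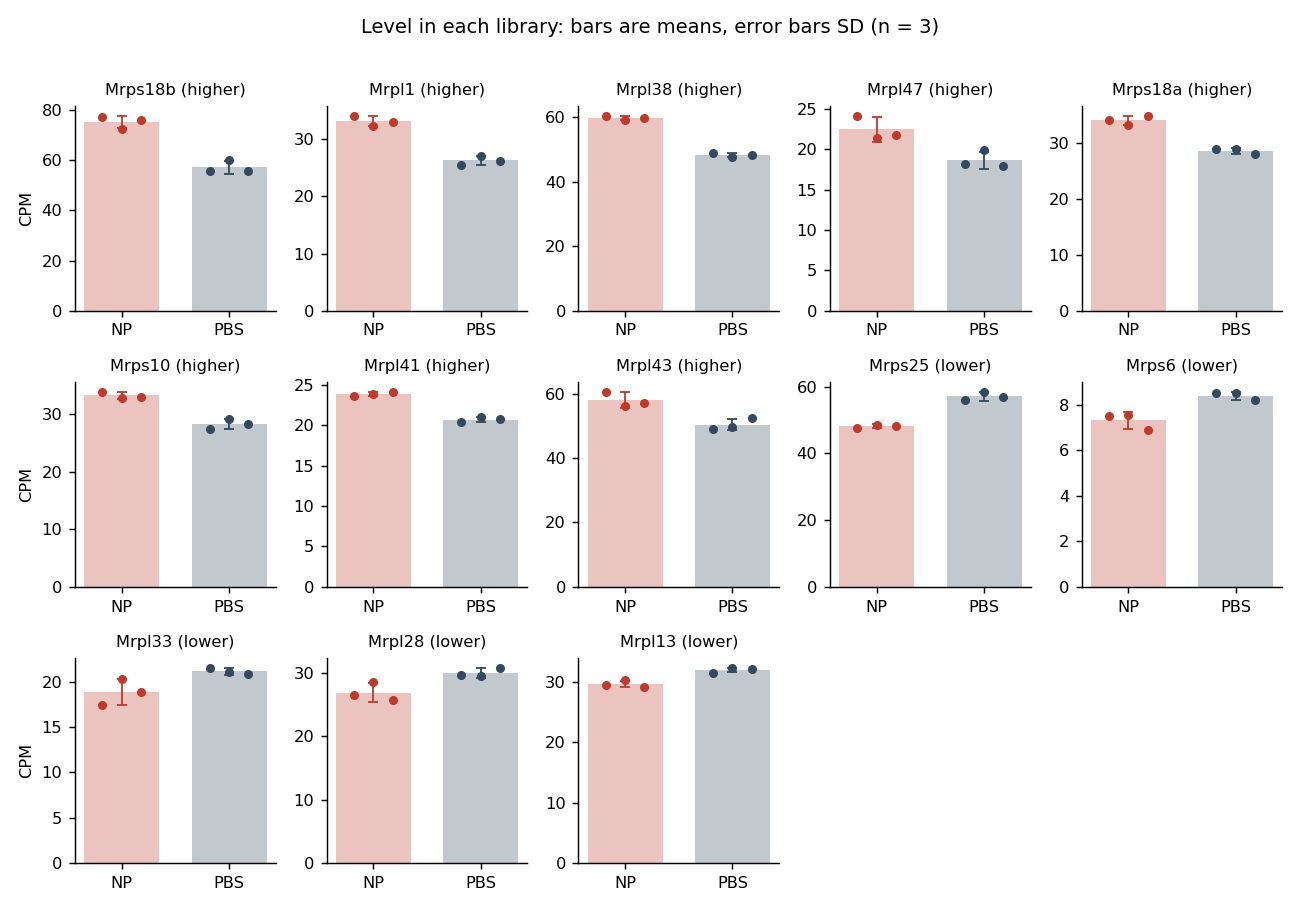
CPM (y axis, from 0) in each library for the 8 genes with the largest called increases and the 5 genes called lower; points are libraries, bars group means and error bars SD (n = 3), with NP in red and PBS in dark blue. In all 13 panels the 3 NP points lie wholly above or wholly below the 3 PBS points, and Mrps6 is at 6.88 to 8.50 CPM.

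In the small subunit, the head held 2 increases among 8 genes. Mrps10 on chromosome 17 (47368887 to 47381417) had 34.0, 32.9 and 33.0 CPM in NP against 27.5, 29.2 and 28.3 CPM in PBS, without overlap (log2 fold change 0.24, SE 0.04, limma adjusted p = 0.00132). Mrps7, whose bacterial counterpart organises the head's ribosomal RNA, rose by 0.15, and Mrps9, Mrps14, Mrps24, Mrps31, Mrps33 and Mrps35 did not pass. Among 9 genes listed for the body and platform, 0 were higher by limma (0 also at an unadjusted p under 0.05). Mrps6 alone was lower, and the median was -0.02. Neither this list nor the 8 head genes include Mrps18b, Mrps22, Mrps23 and Mrps27, all called higher, or Mrps25, called lower. The counts by place thus cover only part of the small subunit. Further called increases were in Mrps2 (0.14), at the exit of the messenger RNA channel, and in the mitochondria-specific Mrps22 (0.16), Mrps23 (0.15) and Mrps27 (0.17). Mrps30, named as a small subunit gene but found in the large subunit, had 34.7, 34.2 and 33.7 CPM in NP against 31.2, 31.7 and 30.5 CPM in PBS, and these did not overlap (log2 fold change 0.14, adjusted p = 0.0144). These groupings by place were drawn up with the values known and carry no test.

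Only 5 genes were lower in NP. Mrps25, a mitochondria-specific small subunit protein encoded on chromosome 6 at 92169525 to 92184033, had 47.7, 48.6 and 48.3 CPM in NP against 56.0, 58.5 and 56.8 CPM in PBS. Its NP libraries differed among themselves by about 1 CPM and all lay well below PBS (log2 fold change -0.24, SE 0.03, limma adjusted p = 0.000391). Mrps25 shares 4590 exonic bases on the opposite strand with Nr2c2, a nuclear receptor gene of similar total count, whose log2 fold change was 0.11 (adjusted p = 0.0656). Without a stated strand setting, reads of the shared bases cannot be assigned to one gene.

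Mrps6, Mrpl33, Mrpl28 and Mrpl13 are homologues of bacterial proteins, and their decreases were nearer the threshold. Mrps6 had 7.5, 7.56 and 6.88 CPM in NP against 8.50, 8.49 and 8.18 CPM in PBS (log2 fold change -0.20, adjusted p = 0.0415). Mrpl33 had 17.4, 20.3 and 18.9 CPM in NP against 21.6, 21.1 and 20.8 CPM in PBS (-0.17, adjusted p = 0.0456). In both the groups were apart, but in Mrpl33 NP 2 came within 1 CPM of the lowest PBS library. Mrpl28 had 26.4, 28.5 and 25.7 CPM in NP against 29.6, 29.6 and 30.8 CPM in PBS (-0.16, adjusted p = 0.0241). Mrpl13 had 29.4, 30.2 and 29.2 CPM in NP against 31.5, 32.2 and 32.1 CPM in PBS (-0.11, adjusted p = 0.0389). All NP libraries of both genes lay below all PBS libraries. Leaving out single libraries kept the Mrps25 call in all 6 fits, lost the Mrps6 call in all 6, and lost those of Mrpl13 and Mrpl33 in 5 and of Mrpl28 in 4. The number of lower genes was 1 without NP 1, NP 3, PBS 1 or PBS 3, 2 without PBS 2 and 4 without NP 2. The share of all genes called lower was 12.5% to 24% in these fits, against 21.4% in the main fit. Of the 28 increases, 19 held in all 6 of these fits, 14 of them large and 5 small subunit genes.

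The 45 genes that did not pass had positive signs in 25 cases and negative in 20, and their 95% intervals ran from -0.22 to 0.31. A p that misses the threshold does not show that a gene was equal between the groups. The genes nearest to no difference were Mrpl14, whose protein lies at the interface of the subunits, Mrpl57, Mrps18c and Mrpl23, whose estimates lay between -0.01 and 0.00. Mrpl14 had 22.6, 23.3 and 22.3 CPM in NP against 22.6, 22.3 and 23.4 CPM in PBS. Mrpl57 had 19.6, 17.1 and 17.2 CPM in NP against 17.2, 19.4 and 17.6 CPM in PBS, with 1 high library in each group. Both genes overlapped between the groups.

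Among the 45, 9 genes stood apart as higher (Mrpl15, Mrpl16, Mrpl20, Mrpl22, Mrpl32, Mrps9, Mrps12, Mrps17 and Mrps36) and 2 as lower (Mrps21 and Mrps26). An unadjusted p under 0.05 was reached by 4 of them (Mrpl22, Mrpl32, Mrpl52 and Mrps26). Mrpl55, Mrpl21, Mrps5 and Mrpl58, which is also a peptidyl-tRNA hydrolase that rescues stalled ribosomes, had estimates of 0.06 to 0.13 and overlapped. Mrpl3, Mrpl4, Mrpl19, Mrpl30, Mrpl36, Mrpl44, Mrpl49, Mrps16, Mrps28 and Mrps34 lay between -0.03 and 0.04, and Mrpl34 and Mrpl54 at -0.06 and -0.08.

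Genes that share sequence with another expressed gene were also counted apart. For 26 of the 78 genes, exons or at least 5% of 100-base stretches were shared with a gene of 100 or more counts, and 8 of these were higher and 3 lower (median -0.01). Of the 52 below these limits, some of which share a little sequence, 20 were higher and 2 lower (median 0.12), with 14 of 32 large and 6 of 20 small subunit genes higher. This alternative was chosen after seeing the data. Among the lower genes, Mrpl13 shares 330 bases with Mtbp on the opposite strand, which was itself lower (-0.45), and Mrps6 shares 159 bases on the same strand with Slc5a3 (-0.17, adjusted p = 0.149). The part of such sharing in the calls was not tested.

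Levels differed far more between genes than between groups. Per kilobase of merged exon, mean levels over the 6 libraries ran from 2.12 CPM (Mrps35) to 44.7 CPM (Mrps15), a 21.1-fold range, with medians of 16.3 CPM per kilobase for large and 11.3 for small subunit genes. Mrps15, Mrpl27 and Mrpl43 were highest at 44.7, 40.9 and 35.6 CPM per kilobase, and Mrps35, Mrpl33 and Mrps10 lowest at 2.12, 2.73 and 3.81. The order depends on the length used. Per kilobase of the longest principal transcript, a length chosen after seeing the data, Mrps15 stayed first (80.9) and Mrps35 last (4.4), but Mrpl42 ranked 44 by the first length and 2 by the second, and the medians were 24.0 for large and 20.1 for small subunit genes.

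Of the 6 genes at the ends of this range, Mrpl43 and Mrps10 were higher in NP, Mrpl33 was lower and the others did not pass. Mrps15 had 74.4, 76.7 and 73.6 CPM in NP against 75.1, 74.3 and 80.4 CPM in PBS (log2 fold change -0.03). Mrpl27, which in bacteria reaches into the peptidyl transferase centre, had 42.1, 40.8 and 40.8 CPM in NP against 38.0, 41.5 and 38.9 CPM in PBS (0.07, adjusted p = 0.212). Mrps35 had 18.3, 19.6 and 17.8 CPM in NP against 18.3, 17.9 and 17.8 CPM in PBS (0.04, adjusted p = 0.539). All 3 overlapped between groups. Over the 78 genes, the Spearman correlation of log2 fold change with log2 mean CPM was 0.16 and with log2 exonic length 0.06, given as a description over genes that share libraries. The median coefficient of variation between libraries of a group was 2.63% in NP and 3.12% in PBS.

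**Figure D3:**
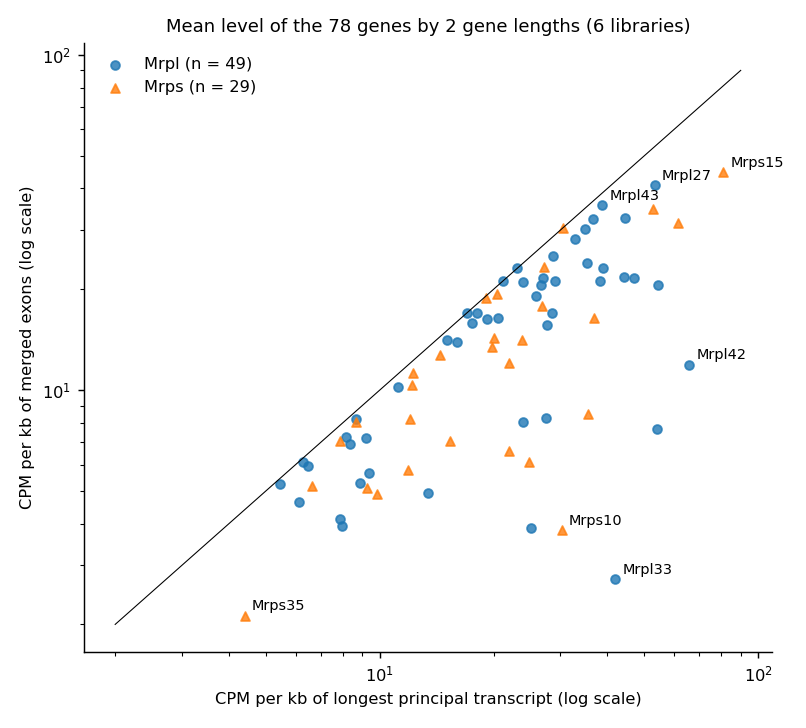
Mean level over 6 libraries of each gene, as CPM per kilobase of its longest principal transcript (x axis) and of its merged exons (y axis), both on log scales; circles are large and triangles small subunit names, and the line marks equality. Mrps15 is highest and Mrps35 lowest on both, while Mrpl42, Mrpl33 and Mrps10 fall far to the right of the line.

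The genes lie on all autosomes but chromosomes 12 and 18, with 11 on chromosome 11 and 8 on chromosome 17, and neighbours on a chromosome did not always move together. On chromosome 17, within a stretch that runs from Mrpl14 at 45686322 to Mrps10 at 47381417, Mrps18a (0.25) and Mrps10 (0.24) were higher, and Mrpl14 (-0.00) and Mrpl2 (0.04) did not pass.

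Starts of these genes share short motifs that are frequent in promoters of genes for mitochondrial proteins. RefSeq promoter windows (build GRCm38.p6, 250 bases before to 50 after the start) were found for 69 of the 78 genes and searched on both strands for GCGCANGCG (nuclear respiratory factor 1, NRF1), CCGGAAG (the ETS family, including GABPA) and AANATGGC (YY1), where an ETS word and a YY1 word can share the bases AAG. NRF1 words stood in 23.2% of the 69 genes, against 10.0% of protein-coding genes and 7.03% of all genes of the table with a window. ETS words stood in 37.7%, against 13.4% and 9.93%, and YY1 words in 30.4%, against 7.59% and 6.96%. Both comparison sets include genes that did not pass the filter, and shares among tested genes alone were not computed. At least 1 of the 3 was found in 69.6% of the genes, against 26.4% of protein-coding genes. It was found in 21 of 27 genes called higher, in 1 of 4 called lower and in 26 of 38 that did not pass.

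The 120 bases before the RefSeq start are printed for genes that rose and for genes that fell, 5′ to 3′ on the gene's strand, to show these words where they occur, and they were chosen after the values were seen. Capitals mark ETS words in Mrpl43 (chr19:45006443-45006562, minus strand) and Mrps18a (chr17:46110884-46111003, plus strand), and NRF1 words in Mrpl45 (chr11:97315596-97315715, plus strand) and Mrpl12 (chr11:120484517-120484636, plus strand, word on the other strand). Mrps25 (chr6:92184024-92184143, minus strand) and Mrpl28 (chr17:26123383-26123502, plus strand), both lower in NP, hold none of the 3 words in these stretches. Most genes that rose hold none there either: a word lies in the 120 bases of 11 of 27 higher genes, 0 of 4 lower ones and 16 of 38 without a call, and Mrpl1, Mrps18b, Mrps10 and Mrpl41, all higher, have none.
Mrpl43: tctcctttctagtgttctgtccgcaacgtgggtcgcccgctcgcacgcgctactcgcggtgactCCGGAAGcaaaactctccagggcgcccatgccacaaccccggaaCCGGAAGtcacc
Mrps18a: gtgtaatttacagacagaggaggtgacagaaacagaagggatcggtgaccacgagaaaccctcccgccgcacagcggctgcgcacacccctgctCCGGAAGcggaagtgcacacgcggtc
Mrpl45: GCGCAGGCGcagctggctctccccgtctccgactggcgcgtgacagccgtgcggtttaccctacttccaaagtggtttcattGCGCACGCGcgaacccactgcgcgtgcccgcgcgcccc
Mrpl12: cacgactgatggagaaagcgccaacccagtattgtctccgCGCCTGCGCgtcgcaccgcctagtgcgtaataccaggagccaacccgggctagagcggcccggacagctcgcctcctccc
Mrps25: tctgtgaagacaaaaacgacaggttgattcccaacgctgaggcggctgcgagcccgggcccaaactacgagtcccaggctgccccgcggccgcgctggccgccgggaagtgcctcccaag
Mrpl28: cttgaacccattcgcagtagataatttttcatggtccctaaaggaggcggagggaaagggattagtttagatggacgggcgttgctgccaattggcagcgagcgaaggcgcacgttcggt
A word is a description of the sequence, and its absence says only that these letters are not in the window.

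The remaining parts of the mitochondrial translation system differed in how many genes rose. Of 5 mitochondrial ribosomal proteins with other names, Ptcd3, at the entrance of the messenger RNA channel, rose by 0.17 and Dap3, a GTP-binding protein of the head, fell (log2 fold change -0.11, adjusted p = 0.0359). Over all genes tested, 19.8% were higher and 21.4% lower. Of 27 genes for assembly and ribosomal RNA modification, 13 were higher (48.1%) and 0 lower by limma (median 0.15). Those with the smallest p were Mrm1, which methylates the large ribosomal RNA (0.43), Mettl17, needed for small subunit assembly (0.36), and Malsu1, which binds the protein of Mrpl14 during large subunit assembly (0.26). Of 14 translation factors, 7 were higher and 0 lower (median 0.11; in both lists 0 were lower at an unadjusted p under 0.05 too), among the higher ones the ribosome recycling genes Gfm2 (0.30) and Mrrf (0.28) and the Co1 translation activator Taco1 (0.24).

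Of 20 mitochondrial tRNA synthetase and amidotransferase genes, 3 were higher (Yars2, Gatb and Ears2) and 2 lower (Cars2 and Aars2), with a median of 0.02. These shares, 15% and 10%, lay below those over all genes tested, 19.8% and 21.4%. Another list held 19 genes for mitochondrial DNA maintenance, transcription and RNA handling, labelled transcription and RNA in the figures. In it 6 were higher (31.6%), with the smallest p in Tbrg4, Twnk and Lrpprc, and Polg and Pnpt1 were lower (10.5%). Of the 13 mitochondrial genes whose messages the mitochondrial ribosome translates, 0 were higher by limma (0 also at an unadjusted p under 0.05). Only mt-Cytb, for cytochrome b, was lower (log2 fold change -0.11, limma adjusted p = 0.0226), and the median of the 13 was -0.09. RNAs of the 13 genes made up 2.33%, 2.35% and 2.32% of counts in NP, against 2.40%, 2.41% and 2.47% in PBS. Each NP library lay below each PBS library in this share. Their summed CPM, scaled with trimmed-mean factors, overlapped between groups. Most of these RNAs carry short poly(A) tails, and the part of poly(A) selection in their levels was not tested.

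**Figure D4:**
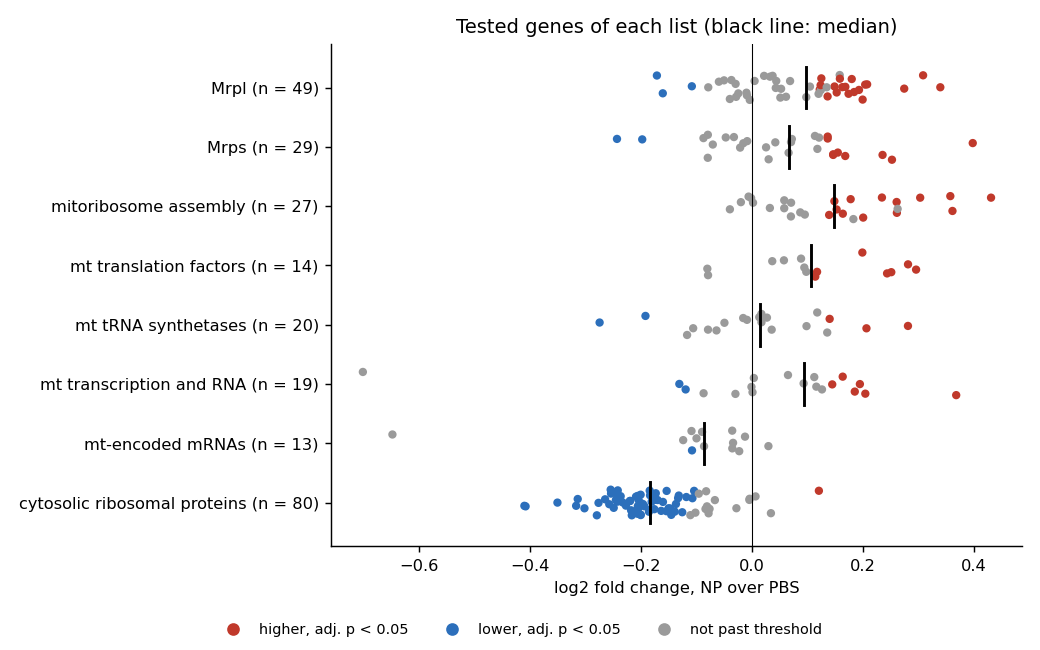
Log2 fold change of NP over PBS (x axis) for each tested gene of 8 lists, with 1 point per gene, coloured by call, and a black line at the list's median. The medians of the Mrpl and Mrps genes lie at 0.10 and 0.07 and that of the cytosolic ribosomal protein genes at -0.18; the 2 points beyond -0.6 are Mterf2 and mt-Nd3, which did not pass.

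Cytosolic ribosomal protein genes went the other way. Of 80 tested, taken by gene name, 65 were lower (81.2%) and 1 higher (Rpl7l1, named as a relative of Rpl7). Over all genes tested, 21.4% were lower and 19.8% higher. The median log2 fold change of the 80 genes was -0.18. Against 26.8% over all genes tested, 70 of the 80 had all NP libraries below all PBS libraries. Their mean summed CPM differed by -11.2% in NP. The lowest values were those of Rps20 and Rps4x (both -0.41). In the same libraries the sum of the mitochondrial ribosomal protein genes was 5.41% higher. Against PBS 1 alone, which leaves the spread to the NP libraries, the median of the cytosolic genes was -0.14. Sequence shared with other genes was counted for the 78 mitochondrial ribosomal protein genes only, not for this list.

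**Figure D5:**
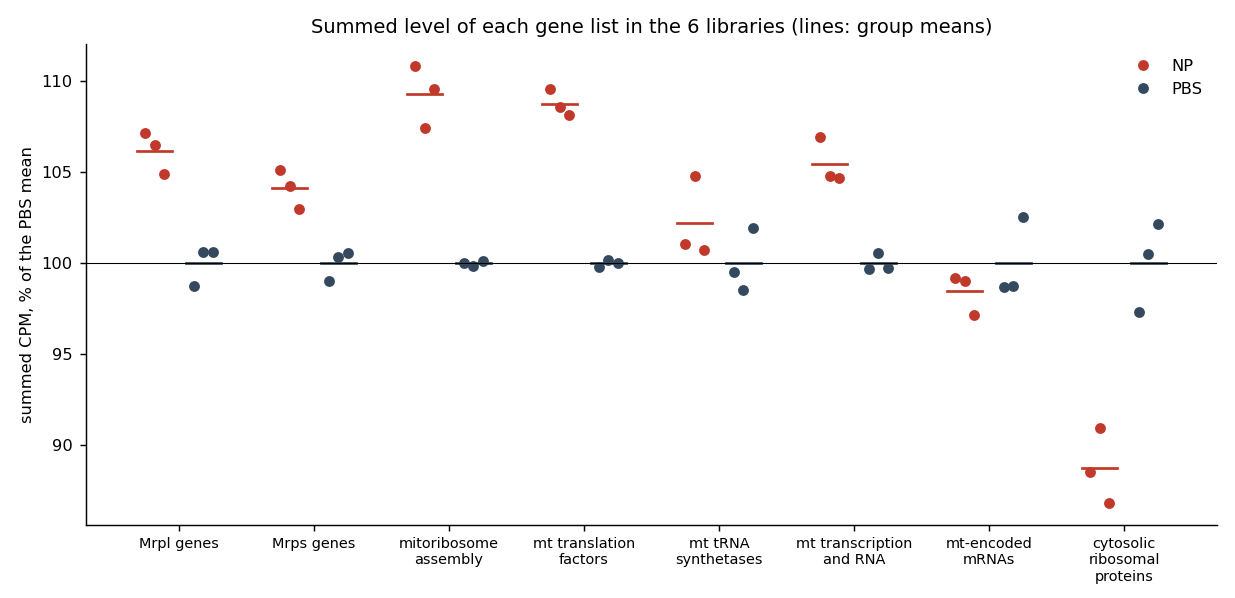
Summed CPM of 8 gene lists in each library as a percentage of the PBS mean (y axis, which does not start at 0), with NP in red to the left of PBS in dark blue and lines at group means (n = 3). NP points lie above all PBS points for the Mrpl, Mrps, assembly, translation factor and transcription lists, below them for the cytosolic ribosomal proteins, and among them for the tRNA synthetases and the mitochondrially encoded mRNAs.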

How the data were processed

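Bulk poly(A) RNA sequencing of 6 libraries (NP and PBS, 3 each; pairs of 151 bp) was analysed from the deposited table. The authors deposited gene-level expected counts with no depth scaling, whose 6 columns hold only whole numbers. The table's layout kept an automatic check from reading the columns as counts, so their unit is recorded as other and rests on the labels and the values. Per the submitters' processing notes, cutadapt 2.3, FastQC 0.11.8, STAR 2.7.8a, RSEM 1.3.3 and MultiQC 1.7 were used with build GRCm38, while the role of each tool, the strand setting and the annotation release were not given in the sources used here. RSEM divides reads that match several genes, and without strand, overlapping genes cannot be told apart. Of 55491 rows, 4 reporter rows with 0 counts were left out. IDs of 55227 gene rows matched GENCODE M21, which gave positions and lengths.

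The filter kept genes that reached 0.171 CPM, equal to 10 counts in a library of median depth, in 3 or more libraries and held 15 or more counts in all. They were fitted with limma 3.58.1 (R 4.3.3) voom on group alone, with 0.5 added to each count, trimmed-mean factors of 0.979 to 1.02 written out after their published definition, and 4 residual degrees of freedom. The fit was tested on simulated data. edgeR and DESeq2 were not run, since the automatic check did not read the unit. Replicates of a group differed by more than sampling noise (chi-square per gene 4.92 to 19.6). The lowest member had 2648 counts over the 6 libraries.

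Values in every library are given for the 8 largest called changes in each direction, the Mrps18 genes, Mrps30, Mrps36, the 3 highest and 3 lowest levels per kilobase and the 4 estimates nearest 0; other genes named were chosen after their values were seen. The members and all lists were chosen with earlier results of these data known. Alternatives were 2 other scalings, 2 filters, limma-trend, sample weights, a replicate block, single libraries left out, 1 PBS library, subunits by structure, genes below the limits of shared sequence and another gene length.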

Additional observations from a re-analysis of the deposited data

How the results depend on the processing

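Under all fits the direction of both subunit medians stayed positive. With 3 libraries a group, changes of a few percent lie near the limit of what the test separates, and 4 of the 5 lower calls were lost without single libraries. Library totals gave 4 small subunit genes lower and medians of 0.064 (large) and 0.032 (small). With no filter the lower calls were 1 in all, 0 large and 1 small, and the medians 0.12 and 0.087. In that fit the median over all genes was -0.086, and 8.75% of all genes were called higher and 8.12% lower. Sample weights gave 4 small subunit genes lower and a large subunit median of 0.070, with 48.7% of all genes called. The replicate numbers did not pair the samples (correlations of -0.15, -0.25 and -0.23 over 9928 genes between same-numbered libraries). Between libraries of different numbers the correlations ran from -0.11 (NP 3 and PBS 1) to 0.34 (NP 3 and PBS 2). Another matching of the samples was not tested. The replicate block gave 23 called genes, with 1 lower, 0 large and 1 small, while 34.7% of all genes were called. Leaving out 1 library at a time gave 22 to 31 called genes, 1 to 4 lower, 0 to 3 large and 1 small, and large subunit medians of 0.085 to 0.12. With PBS 1 as the only PBS library, where the spread comes from the NP libraries alone, the median over all members was 0.08 and 12 genes were called, 11 higher (8 large, 3 small) and 1 lower (0 large, 1 small), the large subunit median was 0.080, and 21 cytosolic genes were lower. With subunits by structure the small subunit median was 0.036. Genes below the limits of shared sequence gave 2 lower calls, 0 of them small, and a large subunit median of 0.12.

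Estimates near 0 changed sign without passing the test. Without the filter Mrps18c was 0.010, Mrpl14 0.017 and Mrpl23 0.012; Mrpl57 was -0.0288 with library totals, -0.0064 with limma-trend and -0.0289 with sample weights, where Mrpl23 was 0.0070; with PBS 1 alone Mrps18c was 0.12 and Mrpl14 0.0014. Leaving out 1 library gave -0.069 to 0.050 for Mrps18c, -0.057 to 0.0043 for Mrps15, -0.022 to 0.020 for Mrpl14, -0.052 to 0.050 for Mrpl57 and -0.047 to 0.024 for Mrpl23. Another 36 values of single genes kept their direction but did not pass, and 247 kept both. edgeR and DESeq2 were not run.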
